A study of Rattus norvegicus with 60 samples.

Results

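The proteasome genes of rat liver were followed through a dose and time series of perfluorooctanoic acid (PFOA). Members were all genes whose symbol starts with Psma, Psmb, Psmc, Psmd, Psme, Psmf or Psmg, which gave 49 of the 32883 genes in the counts table. Of these, 47 passed a filter on low counts and were tested among 12167 genes. Psma8, a testis form of an outer-ring subunit, held 242 counts in all 60 libraries together and did not pass, and Psmb11, a thymus form of a catalytic subunit, held 9. Psmc3ip carries a matching name but is a recombination factor and no part of the proteasome, so it was kept apart from the classes. It remains in every count over the 47 members. Psma3l is listed by RefSeq as Psma3.

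Male Sprague-Dawley rats, singly housed, received water or PFOA by oral gavage, and each liver gave 1 polyA RNA library. The doses were 0 (water vehicle), 1, 5 and 15 mg/kg per day, given for 7, 14 or 28 days, with 5 rats in each of the 12 groups. The sample records give ages of 7 to 8 weeks for day 7, 8 to 9 weeks for day 14 and 10 to 11 weeks for day 28, and the design text gives 5 to 6 weeks without naming the time point. The design text counts each rat as a biological replicate.

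The 26S proteasome degrades proteins tagged with ubiquitin. Its 20S core is a barrel of outer alpha rings, which gate entry, and inner beta rings, which hold the proteolytic sites, and a 19S cap binds, unfolds and deubiquitinates the substrate. In cells exposed to interferon, the catalytic subunits Psmb5, Psmb6 and Psmb7 are replaced by Psmb8, Psmb9 and Psmb10, which favour peptides for MHC class I presentation. When proteasome activity falls short, the transcription factor NRF1 (gene Nfe2l1) raises the genes of core and cap together through antioxidant response elements, a rule established in mouse and human cells.

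Promoter sequences are shown for the catalytic subunit Psmb5 and for the 3 immune subunits, because Psmb8 and Psmb10 were lower where core and cap genes were higher, and Psmb9 was not called. They come from RefSeq, build GRCr8, and run from 250 bases before to 30 bases after the annotated start of the gene, 5′ to 3′. Capitals mark any match, on either strand, to the antioxidant response core TGACNNNGC, the interferon response core (GAAA, any 2 bases, GAAA), the CCAAT box or the GAS core TTCNNNGAA.
Psmb5, chr15:32047350-32047629, minus strand: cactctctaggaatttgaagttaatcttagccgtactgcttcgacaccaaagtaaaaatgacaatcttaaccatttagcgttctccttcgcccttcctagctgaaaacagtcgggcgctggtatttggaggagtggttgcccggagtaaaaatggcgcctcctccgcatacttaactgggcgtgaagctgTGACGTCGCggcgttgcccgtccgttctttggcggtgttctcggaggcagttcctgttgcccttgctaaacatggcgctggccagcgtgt
Psmb8, chr20:4657002-4657281, minus strand: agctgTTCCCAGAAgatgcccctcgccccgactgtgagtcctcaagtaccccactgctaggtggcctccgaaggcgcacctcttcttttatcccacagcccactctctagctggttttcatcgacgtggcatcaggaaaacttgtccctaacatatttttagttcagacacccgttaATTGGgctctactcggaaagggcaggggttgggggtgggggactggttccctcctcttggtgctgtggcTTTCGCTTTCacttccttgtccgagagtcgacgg
Psmb9, chr20:4668750-4669029, plus strand: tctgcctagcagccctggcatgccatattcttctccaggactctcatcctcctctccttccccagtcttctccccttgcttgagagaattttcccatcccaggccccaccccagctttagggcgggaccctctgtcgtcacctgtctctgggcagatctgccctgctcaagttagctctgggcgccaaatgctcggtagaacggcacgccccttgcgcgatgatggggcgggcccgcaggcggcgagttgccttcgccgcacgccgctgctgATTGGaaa
Psmb10, chr19:50743263-50743542, minus strand: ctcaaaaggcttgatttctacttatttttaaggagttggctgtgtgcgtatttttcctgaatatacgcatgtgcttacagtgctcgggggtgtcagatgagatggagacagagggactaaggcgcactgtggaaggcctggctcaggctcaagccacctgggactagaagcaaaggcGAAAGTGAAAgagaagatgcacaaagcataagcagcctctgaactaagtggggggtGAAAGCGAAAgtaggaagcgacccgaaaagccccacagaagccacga

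Of the tested members, 42 were found in the promoter table. The interferon response core was in 7 of them (16.7%), against 3.63% of all 27457 promoters. Those were Psmb8, Psmb10 (with 2 matches), Psme2, Psma4, Psmb3, Psmd7 and Psmg4, and the window of Psmb9 held no match to these letters. The antioxidant response core was in 7 members (16.7%, against 11.4% of all promoters), which were Psmb2, Psmb5, Psmb6, Psmd1, Psmd3, Psmd9 and Psme4. The CCAAT box was in 21 members (50%, against 36.5%), and the GAS core was in 4 (9.52%, against 8.25%). A match describes letters in a window, and binding was not measured.

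Across the whole series, the 60 libraries held 7965500 to 24770100 counts each (median 12606200), and the members held 0.28% to 1.26% of a library. All 8 hepatocyte markers were detected in every group. All 6 checked targets of PPARα, the receptor that PFOA activates in rodent liver, were higher at 15 mg/kg on each day. Of all genes, 6.77%, 12.7% and 8.89% were higher at that dose on days 7, 14 and 28. Of the 8 hepatocyte markers, 7, 6 and 5 were lower, against 7.21%, 10.2% and 8.31% of all genes (edgeR, without the score described next). Libraries of one group differed along a shared axis that held 58.9% of the variance within groups. A library score, the mean of 500 standardised genes along that axis with all members left out, was therefore used as a covariate beside the fit without it. The score ran from -2.32 to 1.28 SDs, and ribosomal protein genes fall as it rises. No dose shifted it against its vehicle group by a margin that these tests detect (9 exact permutation tests, p from 0.103 to 1, adjusted p from 0.5 to 1), with mean differences from -0.47 to 1.08 SDs, and of 0.05, 0.79 and 0.68 SDs at 15 mg/kg on days 7, 14 and 28. Labels give no batch, and what the axis reflects was not tested.

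The proteasome genes themselves lay along this axis. Slopes on the score were negative for 39 of the 47 members and positive for 8, from -1.33 to 0.65 on the log2 scale per SD of score. The slope of the catalytic subunit Psmb5 was -0.96 and the median slope of the outer-ring genes -0.88, whereas the slope of the cap scaffold Psmd2 was 0.65 and that of the ATPase Psmc5 0.03. The median spread within a group was 0.55 (log2 SD) without and 0.19 with the score. Calls of core genes are therefore given with and without the score, and some of their fold changes in 1 fit only. Fold changes are log2 values of CPM (a gene's counts per library size, scaled by TMM).

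**Figure D1:**
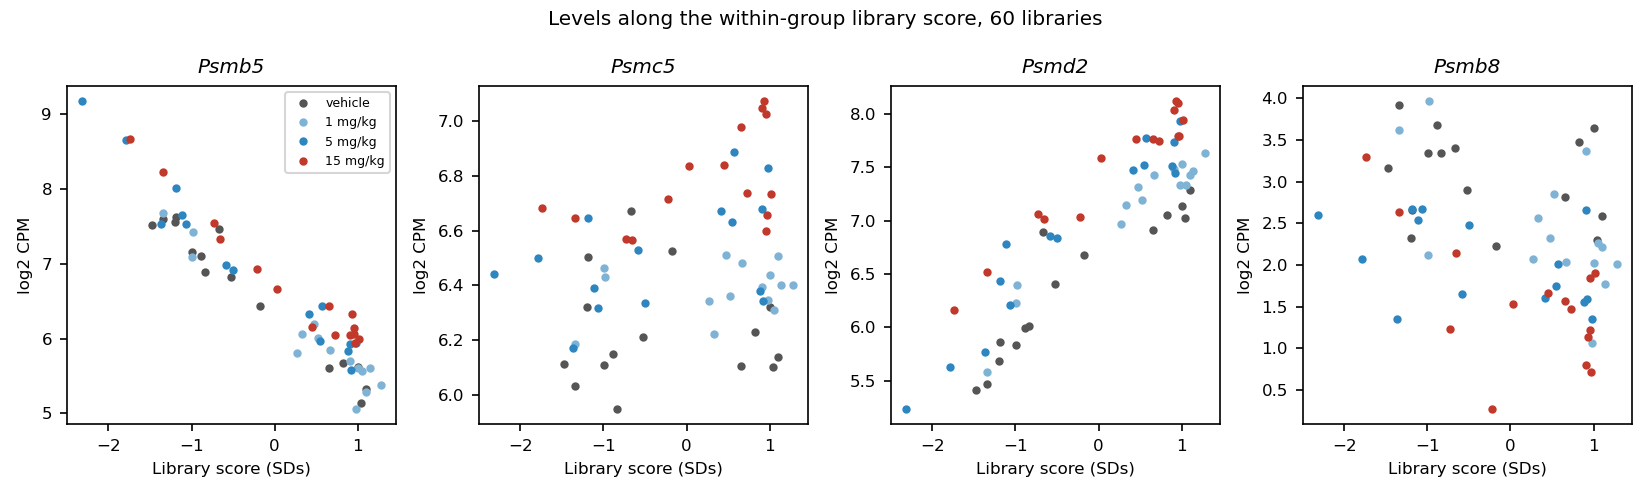
Levels (log2 CPM, vertical axis) of Psmb5, Psmc5, Psmd2 and Psmb8 against the library score in SDs, with 1 point per library and colours for dose. Psmb5 falls and Psmd2 rises along the score in every dose group, whereas Psmc5 is nearly flat.

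At 15 mg/kg, 11 of 17 genes of the 19S cap and 1 of 14 of the 20S core were higher than in vehicle livers on day 14, and 17 and 13 were higher once the library score was in the fit. The immune subunit Psmb8 was lower in both fits. Without the score, the members called (edgeR, adjusted p under 0.05) were 4 higher and 0 lower of 47 on day 7, against 6.77% and 7.21% of all genes, a share close to the background. On day 14 they were 14 higher and 1 lower, against 12.7% and 10.2%. On day 28 they were 7 higher and 1 lower, against 8.89% and 8.31%. With the score, 30, 37 and 32 members were higher on days 7, 14 and 28, and 2, 1 and 2 were lower. The shares of all genes called higher in that fit were 21.2%, 21.7% and 18.5%, and those called lower 16.6%, 19.9% and 17.1%. The median member changed by 0.41, 0.59 and 0.46 with the score, against 0.03, about 0 and -0.01 for all genes tested, and by 0.23, 0.22 and 0.10 without it. The members that passed the filter are 47 of 49, and their number called is a description of this list.

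Few members separated the groups in full. In CPM, the libraries at 15 mg/kg lay all above the vehicle libraries for Psmc5 and Psmc3ip on day 7 and for Psma1, Psmc1, Psmc2, Psmc5, Psmd3, Psmd4 and Psmd13 on day 14. That is 2 (of which Psmc3ip is no proteasome gene) and 7 of 47 members, against 5.19% and 6.78% of all genes. No member did so on day 28, against 5.84%. They lay all below for Psmb8 on days 7 and 28 and for no member on day 14, against 4.59%, 4.82% and 5.84% of all genes. After the score term was taken off, 24, 35 and 14 members lay all above on days 7, 14 and 28, against 12.4%, 15.5% and 12.3% of all genes, and 0, 1 and 2 all below, against 9.56%, 12.5% and 11.5%.

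**Figure D2:**
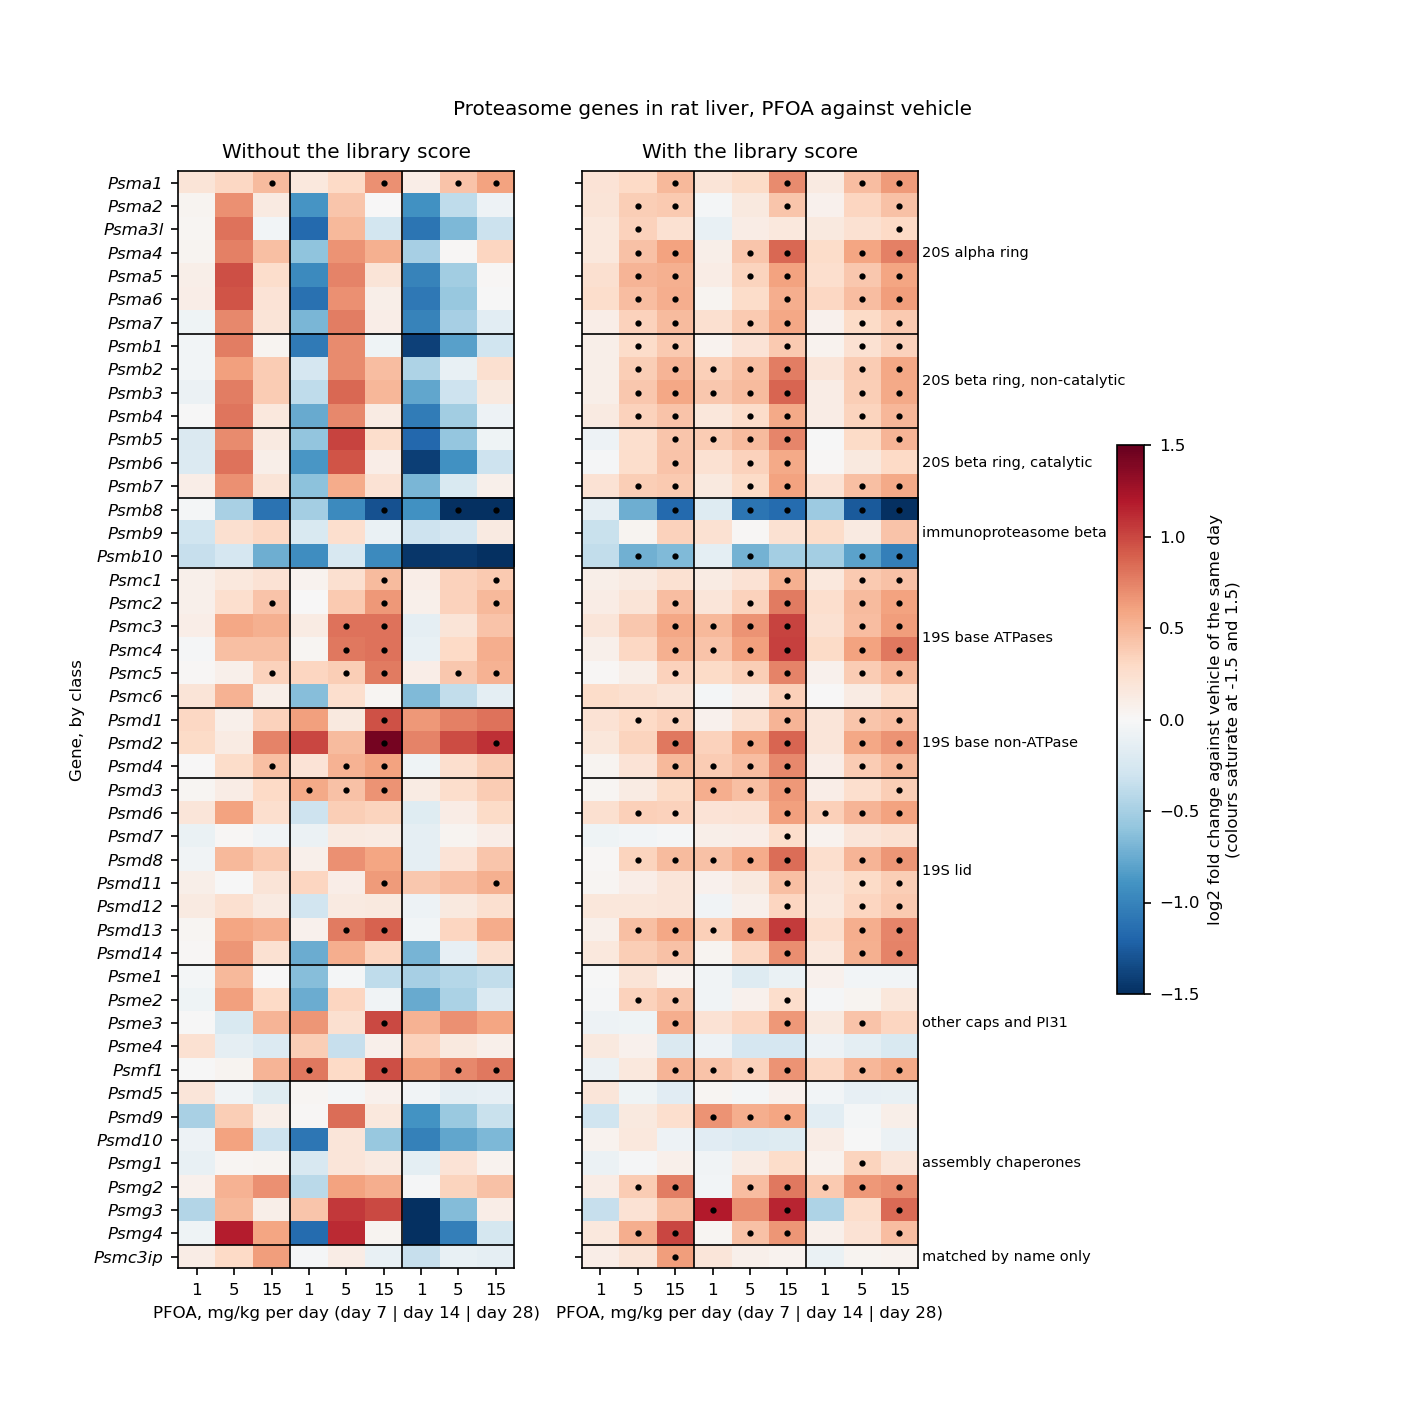
Log2 fold change of each tested member (rows, by class) at 1, 5 and 15 mg/kg against the vehicle group of the same day (columns), without (left) and with (right) the library score, with a dot where edgeR's adjusted p was under 0.05. At 15 mg/kg on day 14, 15 members carry a dot on the left and 38 on the right, and Psmb8 and Psmb10 are blue on both sides.

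Most calls that did not need the score were of cap genes. Psmc5, an ATPase of the ring that unfolds substrates, stood at 74.0, 68.8, 61.7, 69.1 and 70.8 CPM in the day 14 vehicle livers and at 134, 114, 103, 107 and 132 CPM at 15 mg/kg. The groups did not overlap, which held for 6.78% of all genes in that direction. Its log2 fold change was 0.78 (SE 0.12, adjusted p = 2.02e-06), and 0.34 (SE 0.12, adjusted p = 0.0398) on day 7 and 0.52 (SE 0.12, adjusted p = 0.000986) on day 28. On day 7, left out singly, vehicle libraries 2, 4 and 5 and treated libraries 1, 2 and 5 raised the adjusted p to between 0.0608 and 0.121. Psmc4, another ATPase of that ring, stood at 84.8, 58.3, 76.7, 99.7 and 78.1 CPM in vehicle livers of day 14 and at 118, 109, 268.5, 91.4 and 113 CPM at 15 mg/kg. One treated library, library 3, stood far above the others and the groups overlapped. Its fold change was 0.82 (SE 0.27, adjusted p = 0.0201) without the score and 1.03 (SE 0.14, adjusted p = 2.08e-08) with it. Without the score, left out singly, vehicle library 2 and treated library 3 raised the adjusted p to between 0.0538 and 0.169, and without library 3 the fold change was 0.44.

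Psmd13, a subunit of the lid, was at 73.2, 57.2, 66.3, 78.3 and 63.9 CPM in vehicle livers of day 14 and at 103, 102, 216, 89.0 and 118 CPM at 15 mg/kg, with no overlap. The fold change was 0.89 (SE 0.21, adjusted p = 0.00133). Psmd4, a ubiquitin receptor of the base, was at 59.8, 47.0, 70.6, 62.4 and 39.9 CPM in vehicle livers of day 7 and at 70.6, 73.8, 77.4, 85.0 and 76.7 CPM at 15 mg/kg. Those groups touch at the highest vehicle and the lowest treated library. Its fold change was 0.46 (SE 0.16, adjusted p = 0.0476) on day 7, 0.60 (SE 0.16, adjusted p = 0.00453) on day 14 and 0.38 (SE 0.16, adjusted p = 0.102) on day 28. On day 7, left out singly, vehicle libraries 1, 2 and 5 and treated libraries 1, 2, 3, 4 and 5 raised the adjusted p to between 0.0523 and 0.163. Psmd2, a large scaffold of the base, was at 44.2, 118, 140.5, 132 and 56.8 CPM in vehicle livers of day 28 and at 273.97, 91.8, 222, 246.4 and 218 CPM at 15 mg/kg, where 1 treated library lay among the vehicle values. The fold change came to 1.10 (SE 0.40, adjusted p = 0.0469) without the score and 0.67 (SE 0.13, adjusted p = 3.81e-05) with it, and 1.44 (SE 0.40, adjusted p = 0.00628) and 0.88 (SE 0.13, adjusted p = 3.09e-07) on day 14. For the day 28 value without the score, left out singly, vehicle libraries 1, 2 and 5 and treated libraries 1, 3, 4 and 5 raised the adjusted p to between 0.0617 and 0.163.

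Psmd14, the deubiquitinase of the lid, shows how far the fits differ. It was at 115, 163, 36.7, 47.0 and 111 CPM in vehicle livers of day 28 and at 101, 216, 64.4, 72.1 and 105 CPM at 15 mg/kg, and the groups overlapped widely. Its fold change was 0.24 (SE 0.43, adjusted p = 0.748) without and 0.75 (SE 0.16, adjusted p = 0.000207) with the score. Psmd3 and Psmd11, both of the lid, were called on day 14 without the score at 0.67 (SE 0.14, adjusted p = 0.000442) and 0.64 (SE 0.19, adjusted p = 0.00913). The cap genes that were not called with the score were Psmc1, Psmc6, Psmd3, Psmd7, Psmd11 and Psmd12 on day 7, and Psmc6 and Psmd7 on day 28. Of the 17 cap genes, 3, 11 and 5 were called higher on days 7, 14 and 28 without the score and 11, 17 and 15 with it, and none was lower. Of all genes, 6.77%, 12.7% and 8.89% were higher without the score and 21.2%, 21.7% and 18.5% with it.

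**Figure D3:**
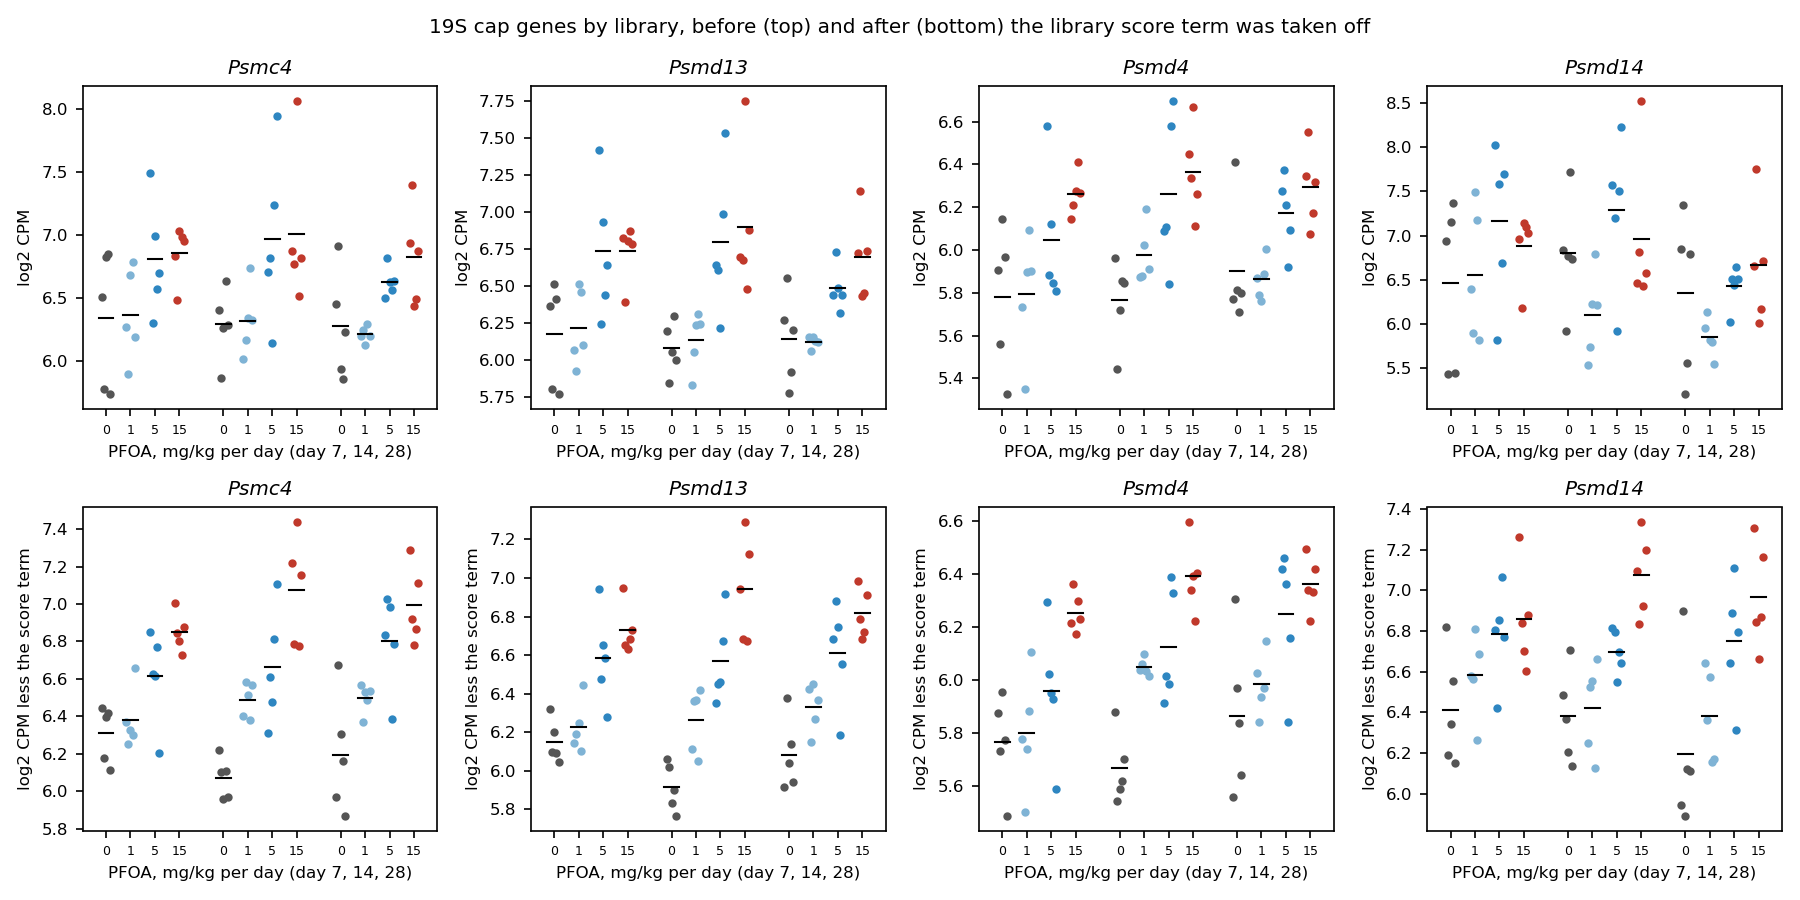
Log2 CPM of the cap genes Psmc4, Psmd13, Psmd4 and Psmd14 in each library (points) with group means (bars), by dose within days 7, 14 and 28, before (top) and after (bottom) the score term was taken off. On day 14 the Psmd13 libraries at 15 mg/kg lie above all vehicle libraries in both rows, whereas Psmd14 overlaps in the top row.

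Core genes were called almost only with the score. Of the 14 constitutive core genes, 1 was called higher on each day without the score and 13 on each day with it, and none was lower. Of all genes, 21.2%, 21.7% and 18.5% were higher with the score on days 7, 14 and 28, and 6.77%, 12.7% and 8.89% without it. The count of 1 in 14 was thus close to or below the share of all genes called without the score. The one called without it was Psma1, of the outer ring, at 118, 95.6, 104, 105 and 90.6 CPM in vehicle livers of day 14 and 169, 159.5, 171, 155 and 168 CPM at 15 mg/kg, without overlap. Its fold changes were 0.48 (SE 0.14, adjusted p = 0.0181), 0.68 (SE 0.14, adjusted p = 0.000388) and 0.61 (SE 0.14, adjusted p = 0.00156) on days 7, 14 and 28. On day 7, left out singly, vehicle libraries 2 and 5 and treated library 1 raised the adjusted p to between 0.0534 and 0.0664. Psmb5, which holds the chymotrypsin-like site, was at 113, 48.5, 118, 183 and 138 CPM in vehicle livers of day 14 and 80.4, 101, 407, 66.1 and 65.9 CPM at 15 mg/kg. One treated library was far above the others, and the other 4 lay within the vehicle range. This gave a fold change of 0.26 (SE 0.59, adjusted p = 0.792) without and 0.73 (SE 0.12, adjusted p = 2.22e-06) with the score. Without the score and without that library the fold change was -0.61. The mean score was 0.79 SDs higher at 15 mg/kg than in vehicle livers that day, and the Psmb5 slope was -0.96 per SD. The value with the score therefore includes an upward correction for that difference. The tests of the score, with 5 libraries per group, can miss a shift of that size.

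Psmb7, with the trypsin-like site, was at 227, 93.4, 305.1, 320.6 and 86.4 CPM in vehicle livers of day 7 and at 220.1, 145, 279.8, 306.8 and 231 CPM at 15 mg/kg, which overlapped. It was called with the score on all 3 days, at 0.40, 0.60 and 0.57, and on no day without it. Without the score and without the libraries with a score below -1.5, its day 14 change was -0.44 (edgeR, adjusted p = 0.42). Psmb6, with the caspase-like site, was called with the score on days 7 and 14 (0.43 and 0.57) and was at 0.30 (SE 0.12, adjusted p = 0.0509) on day 28. Psmb2, of the inner ring, was at 0.51 (SE 0.10, adjusted p = 0.0001), 0.77 (SE 0.11, adjusted p = 5.94e-08) and 0.59 (SE 0.11, adjusted p = 1.19e-05) in that fit. Without the score, Psma1 alone of the core genes was called on any day, and on day 28 Psmb5 and Psmb6 had negative changes. With the score, Psmb5 and Psmb6 were at 0.51 and 0.30 on day 28. The 4 inner-ring genes without a catalytic site were all called with the score on each day, from 0.39 to 0.58, 0.39 to 0.87 and 0.34 to 0.59. With the score, the 7 outer-ring genes ranged from 0.23 to 0.60 on day 7, from 0.16 to 0.86 on day 14 and from 0.30 to 0.76 on day 28, and the one not called on days 7 and 14 was Psma3l. Beside these core genes, the cytosolic ribosomal protein genes, which lie on the same axis, were also higher with the score for 31, 28 and 7 of 37 genes on days 7, 14 and 28, with 1 lower on day 28, and none was called without it. Of all genes, 21.2%, 21.7% and 18.5% were higher with the score, so that 7 of 37 was close to the day 28 share. The part of the ribosomal protein genes in the core gene result was not tested.

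**Figure D4:**
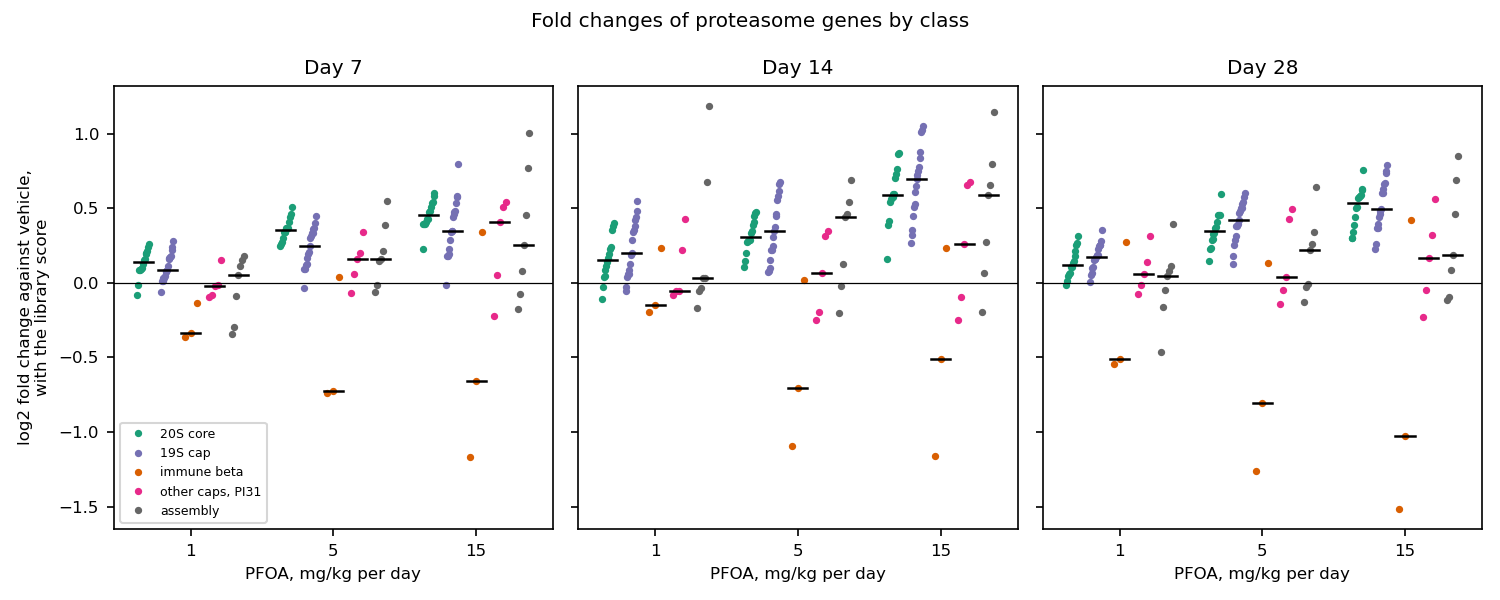
Log2 fold changes against vehicle with the library score (vertical axis) by dose and day, with 1 point per gene and a bar at the median of each class. Core and cap medians at 15 mg/kg lie between 0.35 and 0.70, and the immune points Psmb8 and Psmb10 lie below 0 at every dose.

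Lower doses gave fewer calls. At 5 mg/kg without the score, 0, 6 and 3 members were higher on days 7, 14 and 28, against 3.27%, 5.47% and 5.63% of all genes, and 0, 0 and 1 were lower, against 2.87%, 5.27% and 4.85%. With the score, 18, 22 and 28 were higher, against 10.0%, 15.8% and 13.3%, and 1, 2 and 2 were lower, against 8.42%, 15.1% and 11.9%. At 1 mg/kg without the score, 0, 2 and 0 were higher, against 0.0904%, 3.76% and 1.85%, and none was lower, against 0.0247%, 2.95% and 1.38%. The 2 were Psmd3, at 0.57 (SE 0.14, adjusted p = 0.0136), and Psmf1, at 0.79 (SE 0.25, adjusted p = 0.0427). Left out singly, vehicle library 4 raised the adjusted p of Psmd3 to 0.0601, and vehicle libraries 1, 3, 4 and 5 and treated libraries 1, 2 and 3 that of Psmf1 to between 0.0554 and 0.177. With the score, 0, 12 and 2 were higher at 1 mg/kg, against 0.847%, 6.63% and 4.12%, and none was lower, against 0.608%, 6.11% and 3.36%. The median member changed by 0.09, 0.14 and 0.12 at 1 mg/kg and by 0.26, 0.29 and 0.33 at 5 mg/kg with the score on days 7, 14 and 28. The doses of a day share their vehicle libraries.

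Single genes show the course over dose. Psmc5 was at 79.2, 84.3, 91.2, 86.1 and 89.2 CPM at 1 mg/kg and at 83.8, 92.2, 81.1, 100.04 and 86.7 CPM at 5 mg/kg on day 14. Its fold changes were 0.32 (SE 0.12, adjusted p = 0.0798) and 0.37 (SE 0.12, adjusted p = 0.0339), against the 0.78 of 15 mg/kg. At 5 mg/kg, vehicle libraries 3 and 4 and treated libraries 4 and 5, each left out singly, raised the adjusted p to between 0.0514 and 0.0795. Psmb8 was at 3.90, 5.77, 4.48, 7.06 and 10.2 CPM at 1 mg/kg on day 28, with a fold change of -0.91 (SE 0.41, adjusted p = 0.18), below the vehicle range in all but 1 library. Psmd2 had fold changes with the score of 0.16, 0.33 and 0.80 at 1, 5 and 15 mg/kg on day 7.

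Between 15 and 5 mg/kg, no member was called on any day without the score, where 0.329%, 0% and 0.0411% of all genes were. With it, Psmd2, Psme3, Psmf1, Psmg2 and Psmg4 were higher at 15 mg/kg on day 7, which is 5 of 47 against 4.05% of all genes, and none was lower, against 2.11% (6.16% in either direction). None was called on days 14 and 28, against 0.074% and 0.123%. The change of the 15 mg/kg effect from day 7 to day 14 or day 28 was called for no member in either fit, and for 0% to 0.00822% of all genes. Vehicle livers of days 28 and 7 differed in no member in either fit, against 0.0411% and 0.912% of all genes.

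Of the immune subunits, Psmb8 and Psmb10 were lower at 15 mg/kg, Psmb10 only with the score, and Psmb9 was not called. Psmb8, the immune counterpart of Psmb5, was at 15.0, 10.5, 12.3, 10.9 and 9.99 CPM in vehicle livers of day 28 and at 2.18, 6.05, 3.43, 3.60 and 2.82 CPM at 15 mg/kg. All treated libraries lay below all vehicle libraries, as did 4.82% of genes. Its fold change was -1.71 (SE 0.42, adjusted p = 0.00224) on day 28, -1.31 (SE 0.42, adjusted p = 0.0189) on day 14 and -1.11 (SE 0.43, adjusted p = 0.0762) on day 7. On day 14, left out singly, vehicle library 5 and treated libraries 1, 2, 4 and 5 raised the adjusted p to between 0.0506 and 0.0747. With the score it was -1.52 (SE 0.32, adjusted p = 0.000129), -1.16 (SE 0.32, adjusted p = 0.0031) and -1.17 (SE 0.34, adjusted p = 0.00599). At 5 mg/kg on day 28 it was at 6.17, 3.86, 2.39, 5.44 and 2.87 CPM, with a fold change of -1.504 (SE 0.41, adjusted p = 0.0113). The counts behind Psmb8 were low, from 11 to 157 per library.

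Psmb10, the counterpart of Psmb7, was at 30.6, 19.9, 11.2, 11.7 and 24.4 CPM in vehicle livers of day 28 and at 3.39, 14.5, 4.98, 5.46 and 5.34 CPM at 15 mg/kg. All but 1 treated library lay below every vehicle library. The change against vehicle was -1.55 (SE 0.59, adjusted p = 0.0616) without and -1.03 (SE 0.25, adjusted p = 0.000885) with the score, and with the score -0.66 (SE 0.25, adjusted p = 0.0308) on day 7 and -0.51 (SE 0.25, adjusted p = 0.0908) on day 14. For day 7 with the score, left out singly, vehicle libraries 2 and 3 and treated libraries 1 and 5 raised the adjusted p to between 0.0553 and 0.115. Psmb9, the counterpart of Psmb6, was at 24.9, 12.7, 12.4, 13.9 and 18.1 CPM in vehicle livers of day 28 and at 5.98, 35.4, 15.4, 17.99 and 16.0 CPM at 15 mg/kg. The groups overlapped, and it was called in no dose comparison in either fit, with 0.14 (SE 0.46, adjusted p = 0.869) on day 28 without the score and 0.42 (SE 0.30, adjusted p = 0.284) with it.

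**Figure D5:**
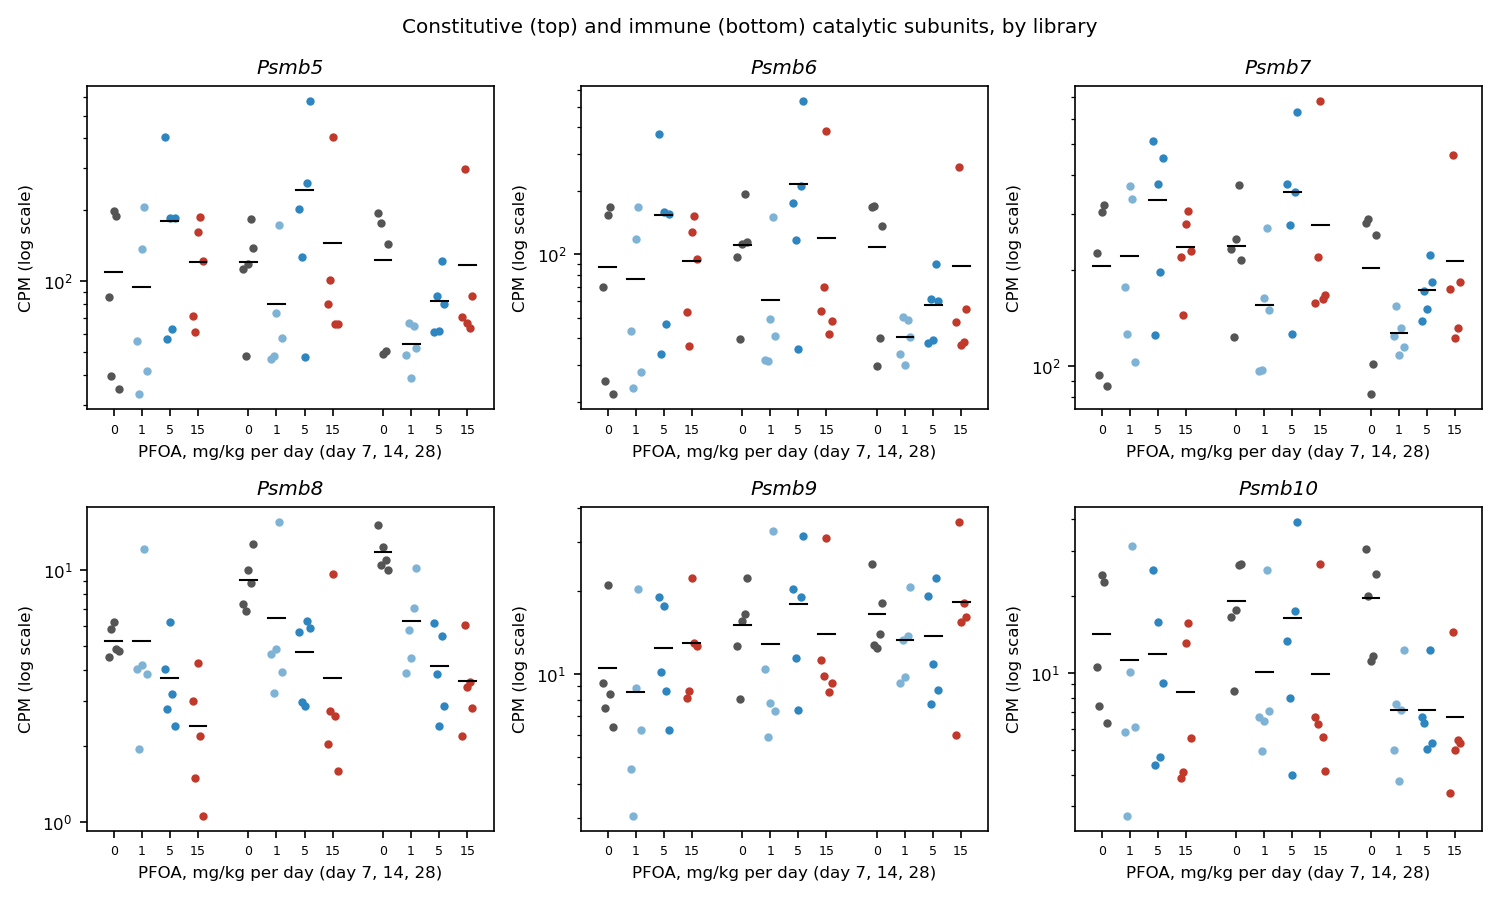
CPM on a log axis of Psmb5, Psmb6 and Psmb7 (top) and their immune counterparts Psmb8, Psmb9 and Psmb10 (bottom) in each library, by dose within days 7, 14 and 28, with bars at group means. On day 28 the Psmb8 libraries at 15 mg/kg lie below all vehicle libraries, whereas those of Psmb9 overlap.

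Ratios of the immune subunits to other genes were also taken within each library. They were chosen after the values were seen, used log2 of counts plus 0.5, and gave 45 tests over 5 ratios. The ratios were not adjusted for the library score, and need not cancel it. Slopes on the score were -0.38 for Psmb8, -0.55 for Psmb9 and -0.84 for Psmb10. Those of Psmb5, Psmb6 and Psmb7 were -0.96, -1.13 and -0.72. An adjusted p under 0.05 was reached in 6 of 9 dose comparisons for Psmb8 over Psmb9, 5 for Psmb10 over Psmb7, 3 each for Psmb8 over Psmb5 and over Tap1, and 0 for Psmb9 over Psmb6. Psmb8 over Psmb9 changed by -1.60 (exact two-sided permutation p = 0.0159, adjusted over 45 tests 0.042) on day 7, -1.36 (exact two-sided permutation p = 0.00794, adjusted over 45 tests 0.0298) on day 14 and -1.74 (exact two-sided permutation p = 0.00794, adjusted over 45 tests 0.0298) on day 28 at 15 mg/kg. The smallest p that 5 against 5 allows is 0.00794. At 1 mg/kg on day 28 that ratio changed by -0.66 (exact two-sided permutation p = 0.00794, adjusted over 45 tests 0.0298). Psmb10 over Psmb7 changed by -1.24 (exact two-sided permutation p = 0.00794, adjusted over 45 tests 0.0298) on day 14 and -1.70 (exact two-sided permutation p = 0.00794, adjusted over 45 tests 0.0298) on day 28 at 15 mg/kg, lower in 5 of 5 treated libraries than the vehicle mean on both days. Psmb8 over Psmb5 changed by -1.63 (exact two-sided permutation p = 0.00794, adjusted over 45 tests 0.0298) and Psmb8 over Tap1 by -1.70 (exact two-sided permutation p = 0.0238, adjusted over 45 tests 0.051) on day 28. Psmb9 over Psmb6 changed by 0.43 (exact two-sided permutation p = 0.492, adjusted over 45 tests 0.643) on day 28. Psmb8 lies between Tap2 and Tap1 and Psmb9 between Tap1 and RT1-DMb on chromosome 20, and Tap1 was at 0.05, 0.20 and -0.10, called on no day.

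Some markers of immune cells were lower at 15 mg/kg too. So were 7, 6 and 5 of 8 hepatocyte markers on days 7, 14 and 28 without the score, and 7, 8 and 7 with it. Of 11 Kupffer cell and macrophage markers, 2, 9 and 4 were lower at 15 mg/kg on days 7, 14 and 28 without the score, against 7.21%, 10.2% and 8.31% of all genes. With the score 7, 11 and 6 of these markers were lower, against 16.6%, 19.9% and 17.1%, and none was higher in either fit. Their summed level was 355 to 682 CPM in vehicle livers of day 28 and 213 to 371 CPM at 15 mg/kg, and no marker of that list was at 0 in any group. Of 8 markers of dendritic and antigen presenting cells, 4, 1 and 1 were lower without the score and 5, 2 and 2 with it. Of 7 markers of T, NK and B cells, 1, 3 and 1 were lower without the score and 1, 4 and 1 with it. Of 8 stellate cell and fibroblast markers, 2, 3 and 1 were lower without the score and 4, 5 and 4 with it. For these lists too, the shares of all genes are those given beside the Kupffer cell markers. At 5 mg/kg, 0, 4 and 0 of 11 Kupffer cell markers were lower on days 7, 14 and 28 without the score, against 2.87%, 5.27% and 4.85% of all genes. With the score 4, 10 and 0 were lower, against 8.42%, 15.1% and 11.9%. On day 28, where Psmb8 was called lower at that dose, the median Kupffer cell marker was at -0.40 without and -0.33 with the score. On day 14 the Kupffer cell sum was 617 to 1.1e+03 CPM in vehicle livers and 173 to 469 CPM at 15 mg/kg, without overlap. The part of these markers in the values of Psmb8 and Psmb10 was not tested, and in bulk tissue fewer cells of a type and less RNA per cell cannot be told apart. Of 14 tested genes of MHC class I processing and interferon response, 1, 0 and 1 were higher and 1, 2 and 0 lower at 15 mg/kg without the score. Those are days 7, 14 and 28, against 6.77%, 12.7% and 8.89% of all genes higher and 7.21%, 10.2% and 8.31% lower. B2m, the light chain of MHC class I, was at -0.97 (SE 0.34, adjusted p = 0.0324) on day 14, and the class I gene RT1-CE4 at -1.02 (SE 0.29, adjusted p = 0.00776). With the score, 2, 0 and 2 of the 14 were higher, against 21.2%, 21.7% and 18.5% of all genes. In that fit 3, 3 and 2 were lower, against 16.6%, 19.9% and 17.1%.

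Other activators did not move as one. Psme1 and Psme2 form the interferon-inducible 11S cap. Psme1 was called in no comparison at 15 mg/kg, at -0.38 (SE 0.32, adjusted p = 0.424) on day 14, and Psme2 was called only with the score, at 0.41 on day 7 and 0.26 on day 14. For Psme2 on day 14 with the score, left out singly, treated library 3 raised the adjusted p to 0.167. Psme3, a nuclear 11S cap, was at 0.99 (SE 0.30, adjusted p = 0.0115) on day 14 without and 0.66 (SE 0.14, adjusted p = 0.000114) with the score, and in the first fit, left out singly, vehicle library 4 raised the adjusted p to 0.0501. Psme4, the PA200 cap, was at 0.08 (SE 0.28, adjusted p = 0.877) and -0.25 (SE 0.13, adjusted p = 0.128). Psmf1, or PI31, which binds the core, was at 31.6, 35.9, 27.5, 17.0 and 27.2 CPM in vehicle livers of day 14 and 66.9, 49.7, 35.2, 54.6 and 67.1 CPM at 15 mg/kg, with 1 treated library low. Its fold change was 0.97 (SE 0.25, adjusted p = 0.00284) on day 14 and 0.80 (SE 0.25, adjusted p = 0.0177) on day 28. On day 28, left out singly, vehicle libraries 1 and 5 and treated library 5 raised the adjusted p to between 0.0542 and 0.0902.

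Assembly chaperones, which build core and base and leave the finished particle, gave no call without the score at 15 mg/kg. With it, 2, 4 and 3 of 7 were higher on days 7, 14 and 28, against 21.2%, 21.7% and 18.5% of all genes. The day 7 count was near that share. Psmg2, of the core assembly pair with Psmg1, was at 0.77 (SE 0.12, adjusted p = 1.52e-06), 0.80 (SE 0.12, adjusted p = 7.18e-07) and 0.69 (SE 0.12, adjusted p = 1.11e-05) in that fit, whereas Psmg1 was at 0.08, 0.27 and 0.19 and was not called. Psmg4, of the other core assembly pair, was at 1.00, 0.66 and 0.46 with the score, its partner Psmg3 was called on days 14 and 28, at 1.15 and 0.85, and Psmd9, a base chaperone, on day 14 at 0.59. The base chaperones Psmd5 and Psmd10 were called on no day. Psmc3ip was higher on day 7 with the score, at 0.63 (SE 0.21, adjusted p = 0.016), and left out singly, vehicle library 3 raised the adjusted p to 0.0542.

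Genes around the proteasome were read from lists, for which the shares of all genes were 6.77%, 12.7% and 8.89% higher and 7.21%, 10.2% and 8.31% lower on days 7, 14 and 28. Of 13 genes of NRF1 activation and substrate shuttling, 1, 3 and 1 were higher and 1, 0 and 1 lower on days 7, 14 and 28 at 15 mg/kg without the score, close to those shares on days 7 and 28. Nfe2l1, which encodes NRF1, was at 1.29 (SE 0.45, adjusted p = 0.0298) on day 14, and with the score at 1.02 (SE 0.13, adjusted p = 2.17e-08), 0.68 (SE 0.13, adjusted p = 5.21e-05) and 0.73 (SE 0.13, adjusted p = 1.46e-05). Ufd1, a cofactor of the VCP segregase, was at 0.56 (SE 0.20, adjusted p = 0.0353) on day 14. Of 13 tested parts and partners outside the name rule, 0, 2 and 1 were higher and 1, 2 and 1 lower. Adrm1, a ubiquitin receptor of the cap, was at 0.96 (SE 0.25, adjusted p = 0.00337), Akirin2, which carries proteasomes into the nucleus, at -0.66 (SE 0.19, adjusted p = 0.00737) and Fbxo7, which binds PI31, at -0.48 (SE 0.14, adjusted p = 0.00879) on day 14. Of 21 tested genes of ubiquitin and its enzymes, 0 were higher and 1 was lower on each day without the score. The lower gene was the conjugating enzyme Ube2r2, at -0.48 (SE 0.10, adjusted p = 0.000344) on day 14. With the score, 6, 4 and 1 of these 21 were higher and 1, 2 and 3 lower on days 7, 14 and 28. Of the 13 NRF1 and shuttling genes, 4, 4 and 3 were then higher and 1, 0 and 2 lower. Of the 13 parts and partners, 1, 3 and 2 were higher and 2, 3 and 2 lower. Shares of all genes with the score were 21.2%, 21.7% and 18.5% higher and 16.6%, 19.9% and 17.1% lower.

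Psmc6, Psmd1, Psmb1, Psmd5, Psmd8, Psme1 and Psmc3ip overlap another protein-coding gene in the RefSeq annotation, as does the untested Psma8. Psmc5 and Psmd14 overlap a pseudogene. Psma1, Psmb2 and Psmf1 overlap a gene of a long noncoding RNA, and Psmc1 that of a small nucleolar RNA. The strand setting of the counting is not given in the sources used here, so reads of these pairs may not be separated.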

How the data were processed

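The authors deposited raw read counts per Ensembl gene for 60 livers, and these deposited counts were whole numbers. Per the submitters' processing notes, bcl2fastq 2.20.0.422, Trimmomatic 0.33, STAR 2.5.2b, the build Rnor_6.0 and featureCounts of Subread 1.6.0 were used, and settings are not given in the sources used here. Genes were kept with filterByExpr (minimum count 10, minimum total 15). Counts were scaled by TMM and fitted with the robust quasi-likelihood test of edgeR 4.0.16 in R 4.3.3, as group means over 60 libraries with 48 residual degrees of freedom. P-values were adjusted by Benjamini-Hochberg over 12167 genes and called under 0.05, and each SE was taken from the fold change and its F statistic. The coefficient of biological variation was 0.388 without and 0.196 with the library score. The fit without the score was tried on counts simulated for 15 mg/kg against vehicle on day 14, without a shared axis between libraries. The fit with the score was not tried on simulated counts. Genes of MHC class I, ubiquitin and other lists were matched by symbol, and genes without a symbol (10602 rows, 0.673% to 2.39% of counts) stayed in. Alternatives included DESeq2 1.42.0 and limma 3.58.1. The members, classes, lists, motifs, ratios and printed promoters were chosen with earlier results of these data known. Genes given with full values were the catalytic and immune subunits, the activators, PI31, Psmc4, Psmd4, Psmd14 and, in each class, the member of smallest p at 15 mg/kg on each day, and of other lists the 3 of smallest p on day 14, of which 1 gene is not reported here. Libraries are numbered within groups in accession order. Libraries of a group differed beyond counting noise.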

Additional observations from a re-analysis of the deposited data

Results flagged for a closer look

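Among 23 named genes in 12 groups, 42 sets of 5 libraries had a highest or lowest library whose gap to the nearest other exceeded 0.71 of the range. For normally distributed values, chance gives about 1 set in 20. The CPM were not put on a log scale and the genes share libraries, so the count of sets is no test against chance. In library 3 of 15 mg/kg on day 14, CPM stood apart for Psmb10 at 26.6, Psmb2 at 387, Psmb5 at 407, Psmb6 at 383, Psmb7 at 684, Psmb8 at 9.66, Psmb9 at 31, Psmc4 at 268.5, Psmd13 at 216, Psmd14 at 368, Psme1 at 379.9, Psme2 at 194 and Psme4 at 96.4. In library 2 of 15 mg/kg on day 28, CPM stood apart for Psmb10 at 14.5, Psmb2 at 274.3, Psmb5 at 298.7, Psmb6 at 260.7, Psmb7 at 459.9, Psmd14 at 216, Psme2 at 132, Psme3 at 14.5, Psmf1 at 37.9 and Psmg2 at 27.8. In library 4 of 1 mg/kg on day 14, CPM stood apart for Psmb10 at 25.1, Psmb5 at 172, Psmb6 at 151, Psmb8 at 15.4, Psmb9 at 32.8, Psmd2 at 84.4, Psme2 at 87.2, Psme3 at 15 and Psme4 at 117. In library 2 of 15 mg/kg on day 7, CPM stood apart for Psmd13 at 83.8 and Psmd14 at 72.3. In library 4 of 1 mg/kg on day 7, CPM stood apart for Psmb10 at 31.4 and Psmb8 at 12.1. In library 4 of 5 mg/kg on day 28, CPM stood apart for Psmb10 at 12.3 and Psmc3ip at 2.59. In library 2 of vehicle on day 28, CPM stood apart for Psma1 at 158 and Psmd4 at 85. In library 4 of 5 mg/kg on day 14, CPM stood apart for Psmc3ip at 2.6. In library 3 of vehicle on day 7, CPM stood apart for Psmb9 at 21. Library 3 of 15 mg/kg on day 14 has a library score of -1.75, among the 3 libraries below -1.5.

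Psmc3ip lay above the vehicle mean in every library at 15 mg/kg on day 7 and below it in every library on day 28, and its log2 fold change on day 7 was 0.63. That pattern of signs is no test of the difference. In edgeR the change of the effect, day 28 minus day 7, was -0.77 (SE 0.34, adjusted p = 0.997).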

How the results depend on the processing

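Counts of members called moved by over 1.5 times as follows. With a fold change of at least 1.5, the counts were 1 (1 mg/kg, day 14), 4 (15 mg/kg, day 28), 0 (15 mg/kg, day 7), 3 (5 mg/kg, day 14), 2 (5 mg/kg, day 28). With the library score as covariate, the counts were 12 (1 mg/kg, day 14), 2 (1 mg/kg, day 28), 5 (15 against 5 mg/kg, day 7), 38 (15 mg/kg, day 14), 34 (15 mg/kg, day 28), 32 (15 mg/kg, day 7), 24 (5 mg/kg, day 14), 30 (5 mg/kg, day 28), 19 (5 mg/kg, day 7). With no filter on low counts, the counts were 1 (1 mg/kg, day 14), 1 (15 mg/kg, day 7), 1 (5 mg/kg, day 14), 2 (5 mg/kg, day 28). When each day was fitted alone, the counts were 1 (1 mg/kg, day 14), 0 (15 mg/kg, day 7), 1 (5 mg/kg, day 14). With limma-voom, the counts were 1 (1 mg/kg, day 28 (with the score)). With DESeq2 size factors, the counts were 3 (15 against 5 mg/kg, day 7 (with the score)), 2 (15 mg/kg, day 7). Without the libraries with a score below -1.5, the counts were 3 (15 against 5 mg/kg, day 7 (with the score)), 3 (5 mg/kg, day 14). Leaving out 1 library gave ranges of 0 to 3 (1 mg/kg, day 14), 4 to 11 (15 mg/kg, day 28), 0 to 5 (15 mg/kg, day 7), 0 to 8 (5 mg/kg, day 14), 1 to 5 (5 mg/kg, day 28), 0 to 1 (5 mg/kg, day 7). At 5 mg/kg on day 14 no member was called without library 5 of 5 mg/kg, and at 15 mg/kg on day 7 none without library 2 of vehicle. Counts at 15 mg/kg with the score ranged from 29 to 33, 37 to 39 and 31 to 37 on days 7, 14 and 28. Log2 fold changes of named members at 15 mg/kg that changed sign were the following, and none of these was called under both settings. Without the libraries with a score below -1.5, Psmb2 day 14 -0.093, Psmb5 day 14 -0.63, Psmb6 day 14 -1.07, Psmb7 day 14 -0.44, Psmd14 day 14 -0.35. Under limma-voom, Psmb5 day 14 -0.035, Psmb6 day 14 -0.34, Psmb9 day 28 -0.032, Psmc3ip day 14 (with the score) -0.015. Under the library score as covariate, Psmb5 day 28 0.51, Psmb6 day 28 0.30, Psmb9 day 14 0.23, Psmc3ip day 14 0.052, Psmc3ip day 28 0.047, Psme2 day 14 0.26, Psme2 day 28 0.17, Psme4 day 14 -0.25, Psme4 day 28 -0.23. Under the DESeq2 Wald test, Psme1 day 7 -0.0021. Under DESeq2 size factors, Psme1 day 7 -0.0022. Under a fit of that day alone, Psme1 day 7 -0.021. With 1 library left out, signs turned within Psmb2 day 14 -0.081 to 0.62, Psmb2 day 28 -0.14 to 0.37, Psmb5 day 14 -0.61 to 0.46, Psmb5 day 28 -0.77 to 0.15, Psmb5 day 7 -0.087 to 0.46, Psmb6 day 14 -1.05 to 0.39, Psmb6 day 7 -0.17 to 0.47, Psmb7 day 14 -0.43 to 0.44, Psmb7 day 28 -0.40 to 0.23, Psmb9 day 14 -0.62 to 0.084, Psmb9 day 28 -0.25 to 0.36, Psmc3ip day 14 (with the score) -0.15 to 0.19, Psmc3ip day 28 -0.29 to 0.024, Psmc3ip day 28 (with the score) -0.066 to 0.17, Psmd14 day 14 -0.33 to 0.61, Psmd14 day 28 -0.14 to 0.52, Psme1 day 7 -0.11 to 0.17, Psme1 day 7 (with the score) -0.0018 to 0.13, Psme2 day 14 -0.71 to 0.11, Psme4 day 14 -0.020 to 0.30, Psme4 day 28 -0.069 to 0.21. The cause was not tested. Direction and side of the threshold held in 593 of 690 fits of named members with 1 library left out without the score, and in 666 of 690 with it. Alternatives to the fit with the score were added after seeing the data. A score built without called genes shared 477 of 500 genes with the score used. No paired analysis was run, because each library came from a different rat and the labels give no pairing of rats. Depth limits the lowest genes, such as Psmc3ip with 9 to 39 counts per library and Psmb8 with 11 to 157.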

Other observations

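Cytosolic chaperones, which fold and protect proteins, were also tested. Of 15 tested genes, 0, 5 and 1 were higher and 0, 0 and 1 lower at 15 mg/kg on days 7, 14 and 28 without the score, against 6.77%, 12.7% and 8.89% of all genes higher and 7.21%, 10.2% and 8.31% lower. Cct8, a subunit of the TRiC folding chamber, was at 0.84 (SE 0.21, adjusted p = 0.00267) on day 14 and 0.70 (SE 0.21, adjusted p = 0.0157) on day 28 (edgeR). Cct3, of the same chamber, was at 0.45 (SE 0.16, adjusted p = 0.0302) and Hsp90ab1, a constitutive HSP90, at 0.46 (SE 0.15, adjusted p = 0.0181) on day 14. With the score, 6, 8 and 6 of the 15 were higher on days 7, 14 and 28, against 21.2%, 21.7% and 18.5% of all genes. In that fit 3, 1 and 2 were lower, against 16.6%, 19.9% and 17.1%.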
